A study of Mus musculus with 15 samples.

Results

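Rab GTPases were examined in cultured mouse pre-B cells as a gene family. Members were the protein-coding genes whose mouse symbol is Rab followed by a number and at most 1 letter and 1 further digit. The count files held 59 such genes, of which 42 had enough reads to be tested among 13077 tested genes in all. The RNA came from a line of pre-B cells that, per the labels, lacks SLP65 (the adaptor of pre-B cell receptor signalling, also called BLNK). Per the labels, this line was derived from mouse bone marrow, was expanded from 1 cell and was kept in IMDM medium with interleukin 7. Its Msl2 knockout derivative was made by electroporation of a guide RNA against Msl2, which encodes a ubiquitin ligase of the MSL histone acetyltransferase complex. Cells of both groups carry the Slp65KO genotype and received no treatment, and each group had 3 libraries of RNA depleted of ribosomal RNA. Nothing in the labels tells whether the 3 libraries of a group came from separate cultures, so the p-values rest on a spread between libraries that may be only technical, in 1 line per genotype.

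Rab proteins are small GTPases that act as switches of membrane traffic. In the GTP-bound form each Rab sits on a particular membrane through lipid tails and recruits effectors (tethers, motors and sorting proteins), and in the GDP-bound form it is withdrawn to the cytosol by a dissociation inhibitor. Exchange factors, many with a DENN domain, load GTP, and activating proteins, mostly with a TBC domain, trigger its hydrolysis. RAB27A moves and docks lysosome-related secretory organelles, such as melanosomes and the lytic granules of killer lymphocytes, and takes part in exosome release. Its loss causes Griscelli syndrome in people and the ashen coat colour in mice.

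In all 6 RNA libraries the sample title named the other genotype than the genotype tag did. The groups are called wild type and knockout after the titles, so each direction given depends on the titles being right. Msl2 did not check the labels, because its RNA was present in both groups, with 97.1, 99.3 and 92.3 CPM in wild-type and 105, 103 and 121 CPM in knockout libraries, the latter all higher (adjusted p 0.302, edgeR). CPM is reads per 1000000 after scaling of the libraries to each other by TMM, and sets of 3 values are in the order of replicates 1, 2 and 3. CPM is not corrected for gene length, so levels of different genes are not compared. Total counts ran from 14092278 to 20803227 per library. On the leading principal component (50% of the variance of all tested genes) wild-type replicates 1, 2 and 3 lay at -30.8, -20.2 and -29.1 and knockout replicates at 29.9, 16.9 and 33.2, so that both libraries numbered 2 stood apart. On the next component (23%) wild-type replicates lay at 15.9, 11.8 and -31.5 and knockout replicates at 3.67, 18.2 and -18.2, so that both libraries numbered 3 stood apart. Results are therefore also given without either pair. All 10 B lineage markers were tested, with a summed level of 2970 to 3301 CPM in wild-type and 3083 to 3108 CPM in knockout libraries, and 0 of them were called (0 also in DESeq2, and 1, Vpreb1, below an unadjusted p of 0.05). Blnk, the gene of SLP65, is on that list and had reads in all 6 libraries.

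The promoters of the 2 members that passed the test, and that of Rab8a, the close relative of Rab8b that did not pass it, are printed here to show their sequence context. The study concerns YY1 as a guide for the MSL complex, and no binding values are used here. Each sequence is the 250 bases before the annotated start (RefSeq, GRCm38.p6, which is mm10), read 5′ to 3′ on the strand of the gene, with CpG dinucleotides in capitals. They are chr9:73044560-73044809 on the plus strand for Rab27a, chr9:66919706-66919955 on the minus strand for Rab8b and chr8:72160950-72161199 on the plus strand for Rab8a.
Rab27a: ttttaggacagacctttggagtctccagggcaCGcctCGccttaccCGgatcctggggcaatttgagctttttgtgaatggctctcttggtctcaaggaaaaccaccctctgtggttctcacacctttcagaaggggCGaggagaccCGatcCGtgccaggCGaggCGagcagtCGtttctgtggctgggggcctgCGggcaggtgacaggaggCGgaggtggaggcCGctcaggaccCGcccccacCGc
Rab8b: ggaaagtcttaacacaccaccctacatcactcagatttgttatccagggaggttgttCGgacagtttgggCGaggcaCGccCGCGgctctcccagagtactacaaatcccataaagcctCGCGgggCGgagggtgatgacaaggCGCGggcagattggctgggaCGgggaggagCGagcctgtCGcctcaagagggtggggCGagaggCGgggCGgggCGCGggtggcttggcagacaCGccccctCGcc
Rab8a: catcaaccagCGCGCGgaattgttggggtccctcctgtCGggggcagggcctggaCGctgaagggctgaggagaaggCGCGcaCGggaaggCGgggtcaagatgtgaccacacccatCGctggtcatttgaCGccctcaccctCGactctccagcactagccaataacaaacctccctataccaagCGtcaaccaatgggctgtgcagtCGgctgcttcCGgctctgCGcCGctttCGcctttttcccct

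The printed stretches of Rab27a, Rab8b and Rab8a held 14, 20 and 18 CpG dinucleotides, and their GC contents were 62%, 64.4% and 61.6%. Rab27a had another annotated start, at which the 250 bases upstream held 5 CpG dinucleotides and had a GC content of 51.6%. In windows of 300 bases (250 before to 50 after a start), the 43 windows of 35 tested Rab genes had a median of 24 CpG dinucleotides, and the 17 windows of 13 untested Rab genes a median of 10. The median was 20 over the windows of all tested genes and 7 over all 32851 windows. No window was listed for the tested members Rab18, Rab26, Rab2a, Rab36, Rab37, Rab44 and Rab4a. The core of the YY1 motif, searched as AANATGGC on both strands, was present in 5 of the 43 windows of tested Rab genes (11.6%). These were windows of Rab13, Rab1a, Rab22a, Rab28 and Rab7. The share was 8.86% over the windows of all tested genes and 6.05% over all windows. The windows of Rab27a, Rab8b and Rab8a did not hold these letters.

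Of the 42 tested Rab genes, 2 fell in the knockout, Rab27a and Rab8b, and 0 rose. Calls are those of edgeR's quasi-likelihood test where p, adjusted by Benjamini-Hochberg over the 13077 genes, was under 0.05. The 2 called members are 4.76% of the tested Rab genes, close to the 4.59% of all tested genes that were called in either direction. By direction, 2.79% of all genes were lower and 1.8% higher. Below an unadjusted p of 0.05 lay 7 members, 5 lower and 2 higher, beside 15.4% of all genes. DESeq2 called 3 members lower and 1 higher, where it called 6.07% of all genes (3.56% lower and 2.5% higher). Limma-voom called 2 lower and 0 higher, where it called 4.74% of all genes (2.91% lower and 1.83% higher). Without both libraries numbered 2, edgeR called 1 member, Rab27a, and 3.09% of all genes (1.73% lower and 1.36% higher). Without both libraries numbered 3 it again called 1 member, Rab27a, and 2.11% of all genes (1.26% lower and 0.853% higher). The median log2 fold change of the tested members was 0.05, beside a median of 0.00 over all tested genes. Of the members 27 had positive values (64.3%) and 15 negative ones, beside 51% positive over all tested genes. The groups did not overlap for 10 members (23.8%), 5 in each direction, beside 20.9% of all tested genes (9.68% with all knockout libraries above and 11.2% with all below). These are bulk libraries, so fewer cells that express a gene and less RNA per cell cannot be told apart.

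**Figure D1:**
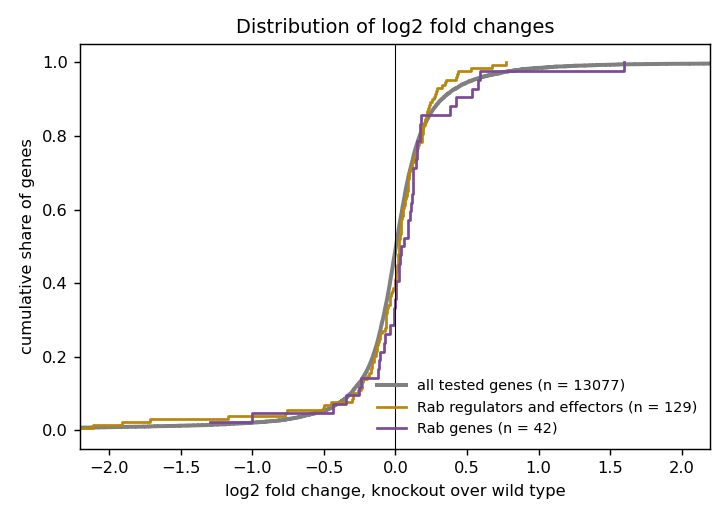
Cumulative share of genes (vertical axis) by log2 fold change of the knockout over the wild type (horizontal axis) for the 42 tested Rab genes, the 129 tested Rab regulators and effectors and all 13077 tested genes. The horizontal axis stops at a log2 fold change of 2.2 on either side. The Rab genes and all tested genes had medians of 0.05 and 0.00, with 64.3% and 51% of their values positive.

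Rab27a had the largest fall among the Rab genes. Rab27a (ENSMUSG00000032202.11, chromosome 9, 73044810 to 73097623, mm10) was at 45.4, 53.2 and 46.6 CPM in wild-type and 19.6, 21.1 and 18.5 CPM in knockout libraries. All 3 knockout libraries lay far below all 3 wild-type libraries, and the knockout libraries were close to each other. Mean levels of 48.4 ± 4.2 and 19.7 ± 1.27 CPM (SD, n = 3 per group) correspond to a 2.45-fold lower level in the knockout. The log2 fold change was -1.29 ± 0.10 (SE), with a 95% interval from -1.51 to -1.07 and an adjusted p of 0.000102 (edgeR). These values rest on 642 to 943 reads per wild-type library and 281 to 449 per knockout library. With any 1 library left out the log2 fold change stayed between -1.34 and -1.22, and it was -1.27 without both libraries numbered 2 (adjusted p 0.000717) and -1.27 without both numbered 3 (0.0034). The 3 tested genes within 100 kb of it (Ccpg1os, Pigb and Rsl24d1, chosen by position) had log2 fold changes from -0.16 to 0.06, and 0 were called in edgeR (adjusted p from 0.568 to 0.97). No other gene of the RefSeq annotation overlaps Rab27a.

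Rab27b, the close relative of Rab27a that shares part of its secretory work in other tissues, was almost absent. It had 1 read over all 6 libraries, in wild-type replicate 2 (0.0564 CPM). A count of 0 allows up to 0.212 CPM in the shallowest library, for counting error only. Rab27a was therefore the member of the pair with measurable RNA in these cells in both groups.

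Rab8b, which carries vesicles from the Golgi and recycling endosomes to the cell surface, was the other called member. Rab8b (ENSMUSG00000036943.9, chromosome 9, 66843609 to 66919705) was at 64.6, 62.6 and 69.7 CPM in wild-type and 45.6, 51.2 and 48.5 CPM in knockout libraries. The groups did not overlap, and the gap between them was wider than the range within either. Mean levels were 65.6 ± 3.63 and 48.4 ± 2.76 CPM (SD, n = 3 per group), which is a 1.35-fold lower level, with a log2 fold change of -0.44 ± 0.08 (SE) and an adjusted p of 0.0112. The call held without any 1 library (adjusted p from 0.0231 to 0.0434) but was lost without both libraries numbered 2 (log2 fold change -0.51, adjusted p 0.0559) and without both numbered 3 (-0.39, adjusted p 0.0821). A long non-coding gene, Gm40528, overlaps Rab8b in the annotation, and without a stated strand setting its reads cannot be told apart from those of Rab8b. The 4 tested genes within 100 kb (Car12, Aph1b, Rps27l and Lactb) had log2 fold changes from -0.42 to -0.05, and 0 were called in edgeR (adjusted p from 0.138 to 0.93).

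Rab8a, the paralog of Rab8b, was at 118, 118 and 140 CPM in wild-type and 130, 125 and 136 CPM in knockout libraries. The groups overlapped, and the log2 fold change was 0.06 with a 95% interval from -0.13 to 0.25 (adjusted p 0.846).

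**Figure D2:**
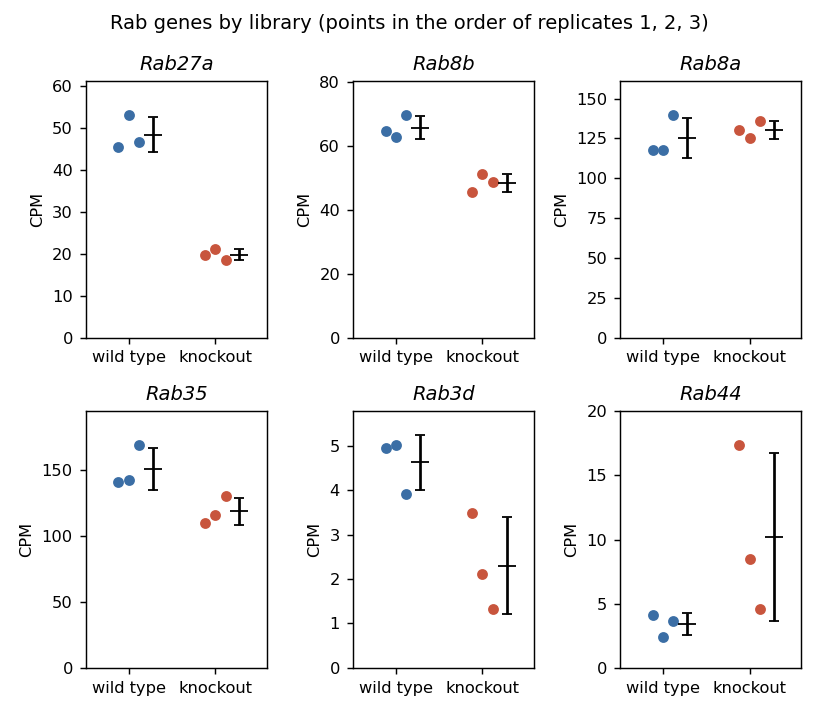
CPM (vertical axes, each from 0) of 6 Rab genes in each wild-type and knockout library, with 1 point per library in the order of replicates 1, 2 and 3 and the mean ± SD (n = 3) beside them. The wild-type and knockout points of Rab27a and Rab8b do not overlap, those of Rab8a do, and those of Rab44 are spread from 4.62 to 17.4 CPM in the knockout.

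Rabs of regulated secretion ran from the lowest to the highest log2 fold change of the family (-1.29 to 1.59). Of 9 in the files, 6 were tested, and Rab27a fell while 0 rose in edgeR (DESeq2 had 1 higher, and 1 higher lay below an unadjusted p of 0.05). Rab44, a large Rab of granulated immune cells such as mast cells, had the highest log2 fold change of the family but did not pass the test. Its levels were 4.1, 2.43 and 3.65 CPM in wild-type and 17.4, 8.5 and 4.62 CPM in knockout libraries. The groups did not overlap, yet the lowest knockout library lay just above the highest wild-type library. The log2 fold change was 1.59 ± 0.42 (SE), with a 95% interval from 0.66 to 2.53 and an adjusted p of 0.0645 in edgeR. DESeq2 called it (adjusted p 0.000929) and limma-voom did not (0.142). Without knockout replicate 1 the log2 fold change was 0.97 (adjusted p 0.16), without knockout replicate 3 it was 1.94 (0.00701), without both libraries numbered 2 it was 1.52 (0.219), and without both numbered 3 it was 2.00 (0.0512). Of 8 mast cell and basophil markers, 7 had no reads in any library (Mcpt8, Cpa3, Fcer1a, Kit, Mcpt4, Cma1 and Prss34). The summed level of the 8 therefore came from Hdc alone. It was 0.677 to 0.929 CPM in wild-type and 0.657 to 0.99 CPM in knockout libraries.

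Rab3d, which acts in the release of secretory granules, was at 4.95, 5.02 and 3.91 CPM in wild-type and 3.48, 2.11 and 1.32 CPM in knockout libraries. All knockout values were below all wild-type values, but the knockout libraries differed among themselves, with 20 to 56 reads each. The log2 fold change was -1.0 ± 0.32 (SE), with a 95% interval from -1.71 to -0.29 and an adjusted p of 0.127. It passed without knockout replicate 1 (log2 fold change -1.41, adjusted p 0.0333). Rab3a, of synaptic vesicle release, and Rab37, of secretory granules, had log2 fold changes of -0.01 and -0.10 with 95% intervals from -0.37 to 0.34 and from -0.50 to 0.29. Rab26, which acts on secretory granules and synaptic vesicles, had a value of 0.59 with an interval from -0.10 to 1.28. Members of the family that the naming rule does not single out, such as Rab3d, were described after their values were seen.

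Rabs of recycling and of transport to the cell surface numbered 12 in the files, with 11 tested, 1 lower (Rab8b) and 0 higher in edgeR (DESeq2 had 0 higher, and 0 higher lay below an unadjusted p of 0.05). Rab35, which sorts cargo from endosomes back to the plasma membrane, was just outside the threshold. Its levels were 141, 142 and 169 CPM in wild-type and 110, 116 and 130 CPM in knockout libraries. The groups did not overlap, and replicate 3 was the highest of each. The log2 fold change was -0.35 ± 0.09 (SE), with a 95% interval from -0.56 to -0.14 and an adjusted p of 0.072 in edgeR, while DESeq2 called it (0.0192). The microRNA gene Mir7030 overlaps it. Rab11a and Rab11b, which mark recycling endosomes, had log2 fold changes of 0.12 (95% interval -0.09 to 0.33) and 0.09 (-0.12 to 0.30). Rab10, of transport to the plasma membrane, had 0.02 (-0.17 to 0.21), and Rab14, of traffic between the Golgi and endosomes, 0.12 (-0.02 to 0.27). Rab14 was at 118, 124 and 122 CPM in wild-type and 129, 136 and 132 CPM in knockout libraries, which do not overlap (adjusted p 0.446). Rab25, an epithelial relative of RAB11, had the highest log2 fold change of this group, 0.54, but only 5 to 26 reads per library and an interval from -0.64 to 1.72.

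Early endosomal Rabs did not pass the test in either direction. Of 8 in the files 6 were tested, with 0 called in edgeR, 0 in DESeq2 and 0 below an unadjusted p of 0.05. Rab5c, one of the 3 RAB5 isoforms that drive fusion of early endosomes, was at 190, 196 and 224 CPM in wild-type and 233, 210 and 217 CPM in knockout libraries. Its groups overlapped, with a log2 fold change of 0.11 and a 95% interval from -0.07 to 0.30. Rab5a had an interval from -0.21 to 0.20 and Rab5b one from -0.26 to 0.27. The other tested members of this group ran from -0.12 (Rab22a) to 0.17 (Rab31), and all 6 intervals lay within a 1.5-fold change either way.

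The late endosomal and lysosomal Rabs were likewise not called (4 tested of 8 in the files; 0 in DESeq2 and 0 below an unadjusted p of 0.05). Rab7, which directs late endosomes to lysosomes, was at 112, 115 and 117 CPM in wild-type and 120, 115 and 129 CPM in knockout libraries. The groups overlapped, and the log2 fold change was 0.09 with a 95% interval from -0.07 to 0.25. Rab9, which returns cargo from late endosomes to the Golgi, had the lowest value of this group, -0.07, and Rab29, a partner of the kinase LRRK2, the highest, 0.12. Rab32 and Rab38, which serve melanosomes and other lysosome-related organelles, had 0 reads in all 6 libraries, which allows up to 0.212 CPM in the shallowest of them.

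Of the Rabs of the endoplasmic reticulum and Golgi, 9 of 13 in the files were tested and 0 were called in edgeR (0 in DESeq2 and 0 below an unadjusted p of 0.05). Rab1a, which tethers vesicles between the endoplasmic reticulum and the Golgi, was at 114, 114 and 126 CPM in wild-type and 105, 109 and 122 CPM in knockout libraries. These groups overlapped, and the 95% interval of the log2 fold change was from -0.26 to 0.10. Rab6a, of retrograde Golgi traffic, had an interval from -0.13 to 0.18. Rab2a and Rab18 each had all 3 knockout libraries above all 3 wild-type libraries, with log2 fold changes of 0.10 and 0.15 (adjusted p 0.568 and 0.462). The lowest value was that of Rab33b (-0.11), a Golgi Rab with a role in autophagy, and the highest that of Rab36 (0.58), which had 6 to 31 reads per library and an interval from -0.37 to 1.53.

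Among Rabs with other roles, 6 of 9 were tested and 0 were called in edgeR (0 in DESeq2, and 2 below an unadjusted p of 0.05). Rab40c, which joins a ubiquitin ligase through its SOCS box, was at 9.04, 10.2 and 9.09 CPM in wild-type and 13.1, 11.7 and 12.1 CPM in knockout libraries. The groups did not overlap, with a log2 fold change of 0.38 ± 0.12 (SE), a 95% interval from 0.10 to 0.65 and an adjusted p of 0.14. Rab24, linked to autophagy, had its 3 knockout libraries (13.7, 13 and 14.5 CPM) below its 3 wild-type libraries (16.6, 15.6 and 16.5 CPM), with an adjusted p of 0.306. Rab19 had the lowest log2 fold change of this group, -0.25, with an interval from -1.03 to 0.53, and Rab23, an inhibitor of Hedgehog signalling, had 0.04.

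Over the 40 Rab genes that were not called, 30 had a 95% interval that lay within a 1.5-fold change in either direction and 32 within a 2-fold change. The intervals of the other 8 reached past a 2-fold change in at least 1 direction. Of the 17 members that did not reach the count filter, 8 had no read in any library (Rab15, Rab20, Rab32, Rab38, Rab3b, Rab3c, Rab42 and Rab9b). The other 9 reached at most 0.746 CPM in a library, with 49 reads in total for Rab30, 22 for Rab6b and 1 to 8 for the rest.

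**Figure D3:**
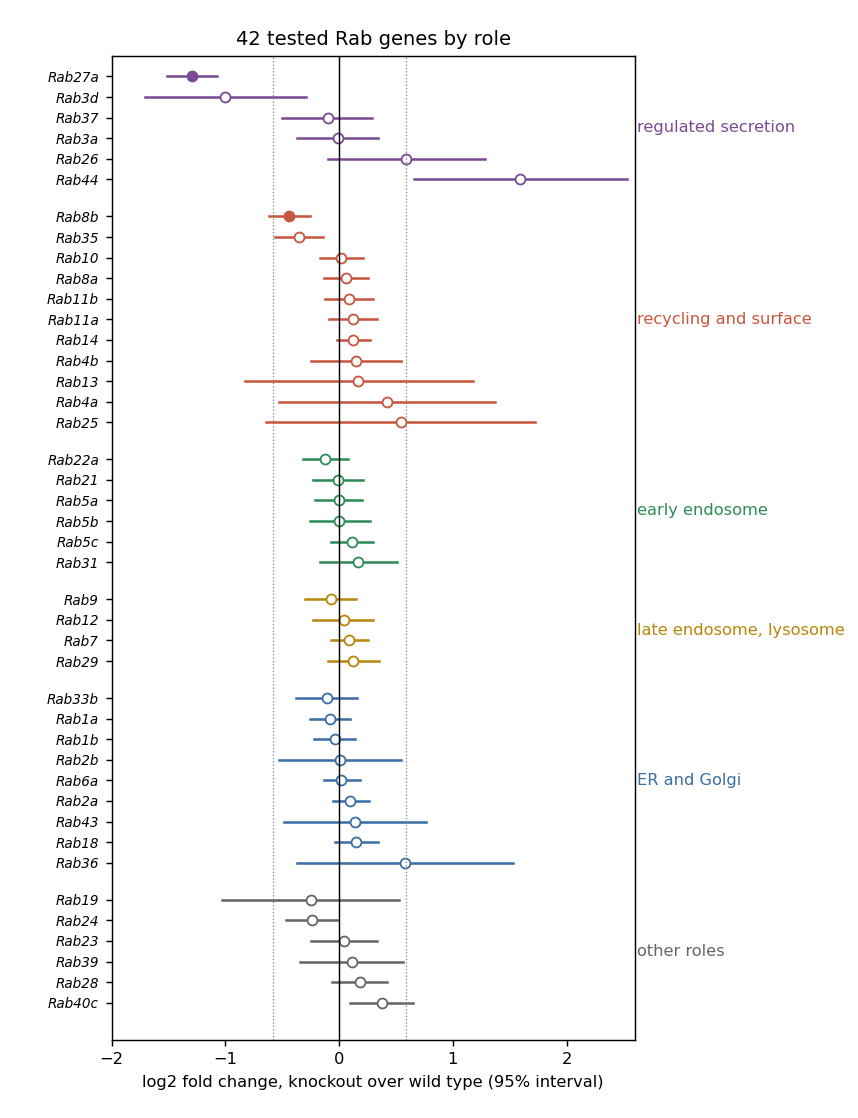
Log2 fold change of the knockout over the wild type (horizontal axis) with its 95% interval for each of the 42 tested Rab genes, grouped by role. Filled points passed an adjusted p under 0.05, open points did not, and dotted lines mark a 1.5-fold change. Rab27a (-1.29) and Rab8b (-0.44) are the filled points, and the intervals are widest for genes with few reads such as Rab25, Rab36 and Rab13.

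The 3 Rab genes with the lowest log2 fold changes, Rab27a, Rab3d and Rab8b, all lie on chromosome 9, as Msl2 does; Rab3d did not pass the test, and the location was looked at after the values were seen. The other 2 tested Rab genes there did not share the direction: Rab39 had a log2 fold change of 0.11 and Rab11a, which lies between Rab39 and Rab8b, 0.12. Over the 639 tested genes placed on chromosome 9 the median log2 fold change was 0.01, and 15 were higher and 23 lower, or 5.95% called, beside 4.59% of all tested genes.

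**Figure D4:**
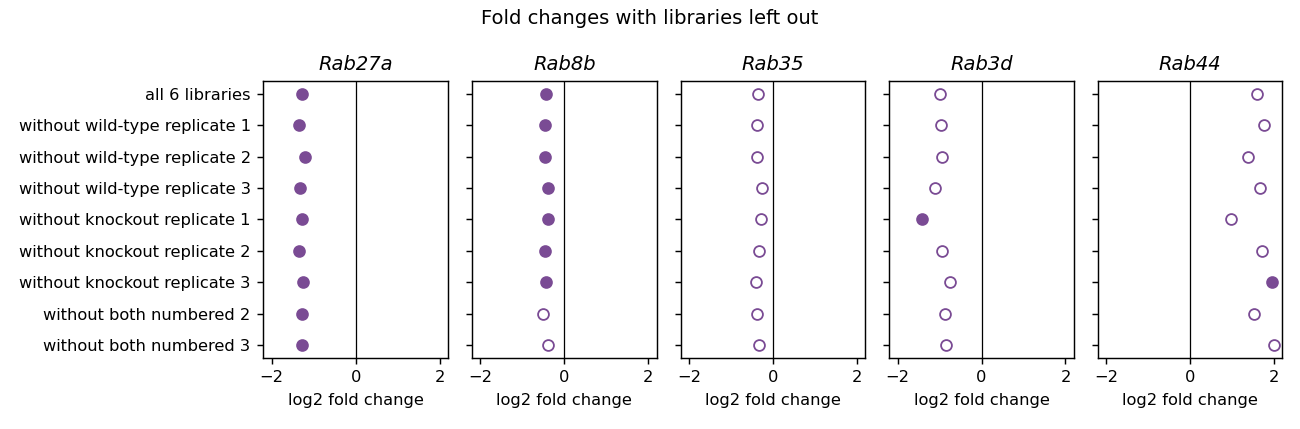
Log2 fold change of the knockout over the wild type (horizontal axes) for 5 Rab genes with all 6 libraries, without each library in turn and without both libraries numbered 2 or both numbered 3 (rows). Filled points passed an adjusted p under 0.05 in edgeR. Rab27a passed in every row, Rab8b in all but the last 2, Rab35 in none, Rab3d only without knockout replicate 1 and Rab44 only without knockout replicate 3.

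Of 129 tested regulators and effectors of Rab proteins, 5 fell and 1 rose, or 4.65% called, beside 4.59% of all tested genes. Their median log2 fold change was 0.02. The groups did not overlap for 40 of the 129 genes (31%), 20 in each direction, beside 20.9% of all tested genes. Below an unadjusted p of 0.05 (edgeR) lay 28 of the 129, 13 higher and 15 lower, beside 15.4% of all tested genes. The lists covered 36 tested activating proteins (2 lower, 1 higher), 47 exchange factors (2 lower, 0 higher), 4 effectors of RAB27 (1 lower, 0 higher), 34 other effectors (0 called) and 8 genes of lipid attachment and membrane recycling (0 called). Where edgeR called 0, the unadjusted counts were 2 higher for the exchange factors, 0 higher for the RAB27 effectors, 5 higher and 1 lower for the other effectors and 3 higher and 0 lower for the last list. DESeq2 called 0 in each of these too. Of all 13077 tested genes, 907 were higher and 1103 lower below an unadjusted p of 0.05 (edgeR).

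Sytl1, which encodes the RAB27A effector SLP1 that links secretory vesicles to the plasma membrane, fell beside Rab27a. Its levels were 11.2, 10.7 and 7.96 CPM in wild-type and 4.41, 2.77 and 1.91 CPM in knockout libraries. All knockout libraries lay below all wild-type libraries. The level was 3.28-fold lower, with a log2 fold change of -1.71 ± 0.27 (SE) and an adjusted p of 0.00532, or -1.58 with an adjusted p of 0.0551 without both libraries numbered 2. Sytl1 passed without both numbered 3 (-1.62, adjusted p 0.0236). Sytl2, of the same effector family, was at 1.84, 1.13 and 1.46 CPM in wild-type and 0.622, 0.657 and 0.66 CPM in knockout libraries, with 10 to 26 reads each. Its groups did not overlap, and its log2 fold change was -1.17 (adjusted p 0.0836). Sytl3 had -0.17 with a 95% interval from -1.19 to 0.84. Unc13d, which encodes the granule priming factor MUNC13-4, was at 45.6, 41.2 and 42.9 CPM in wild-type and 48.9, 39.8 and 37.7 CPM in knockout libraries. Its groups overlapped, with an interval from -0.27 to 0.20. The remaining 6 effectors on the list (Sytl4, Sytl5, Mlph, Myrip, Exph5 and Rph3al) did not reach the count filter.

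A known activator and a known inactivator of RAB27A did not pass the test. Madd, an exchange factor for RAB27A and RAB3, had a log2 fold change of 0.09 with a 95% interval from -0.07 to 0.26 (adjusted p 0.668). Its knockout libraries (54.2, 53.7 and 58.5 CPM) all lay above its wild-type libraries (52.1, 53.4 and 50.6 CPM). Tbc1d10a, an activating protein for RAB27A, had -0.17 with an interval from -0.42 to 0.08 (adjusted p 0.568). Tbc1d10b and Tbc1d10c, of the same name series as Tbc1d10a, also had all knockout libraries above all wild-type libraries. Such a separation was seen in 9.68% of all tested genes. The log2 fold changes of Tbc1d10b and Tbc1d10c were 0.22 (95% interval 0.02 to 0.42, adjusted p 0.25 in edgeR) and 0.29 (0.12 to 0.47, adjusted p 0.0691). DESeq2 called Tbc1d10c. The genes of this paragraph were named after their values were seen.

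Among the exchange factors, Dennd2d, of the DENN domain family, was at 93.2, 67.9 and 76.2 CPM in wild-type and 23.2, 23.8 and 16 CPM in knockout libraries. It was 3.75-fold lower in the knockout, with a log2 fold change of -1.91 ± 0.16 (SE) and an adjusted p of 0.000206. The annotation overlaps it with 2010016I18Rik, a long non-coding gene (log2 fold change -1.71, adjusted p 0.012), and with Cept1 (-0.47, adjusted p 0.0157). Without a stated strand setting, reads of the 3 genes may be shared.

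Of the activating proteins, Tbc1d2, which acts on RAB7, was at 2.26, 1.75 and 1.19 CPM in wild-type and 0.311, 0.516 and 0.33 CPM in knockout libraries (log2 fold change -2.11, adjusted p 0.0122). It no longer passed without wild-type replicate 1 (adjusted p 0.0568), knockout replicate 1 (0.0535), both libraries numbered 2 (0.0614) or both numbered 3 (0.0512). Evi5, which binds RAB11, was at 1.77, 2.71 and 1.39 CPM in wild-type and 0, 0.376 and 0 CPM in knockout libraries (log2 fold change -3.67, adjusted p 0.0174). Knockout replicate 2 held 8 reads and the other 2 knockout libraries 0. The size of the fall is therefore uncertain. Its 95% interval was from -5.29 to -2.05, and without each library in turn the log2 fold change ran from -7.95 to -3.17. Evi5 was no longer called when wild-type replicate 2 was left out (adjusted p 0.0678) or without both libraries numbered 3 (0.071).

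Tbc1d5, which acts on RAB7 and binds the retromer sorting complex, was the member of these lists that rose. Its levels were 40, 40.4 and 39.5 CPM in wild-type and 57.9, 48.4 and 55.3 CPM in knockout libraries. The groups did not overlap, with a 1.35-fold higher level in the knockout (log2 0.43 ± 0.09 SE, adjusted p 0.0196). Tbc1d5 no longer passed when wild-type replicate 1 or 2, or one of knockout replicates 1 and 3, was left out, nor without both libraries numbered 2 or both numbered 3 (adjusted p from 0.0559 to 0.129), while the log2 fold change in these fits stayed between 0.37 and 0.52.

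**Figure D5:**
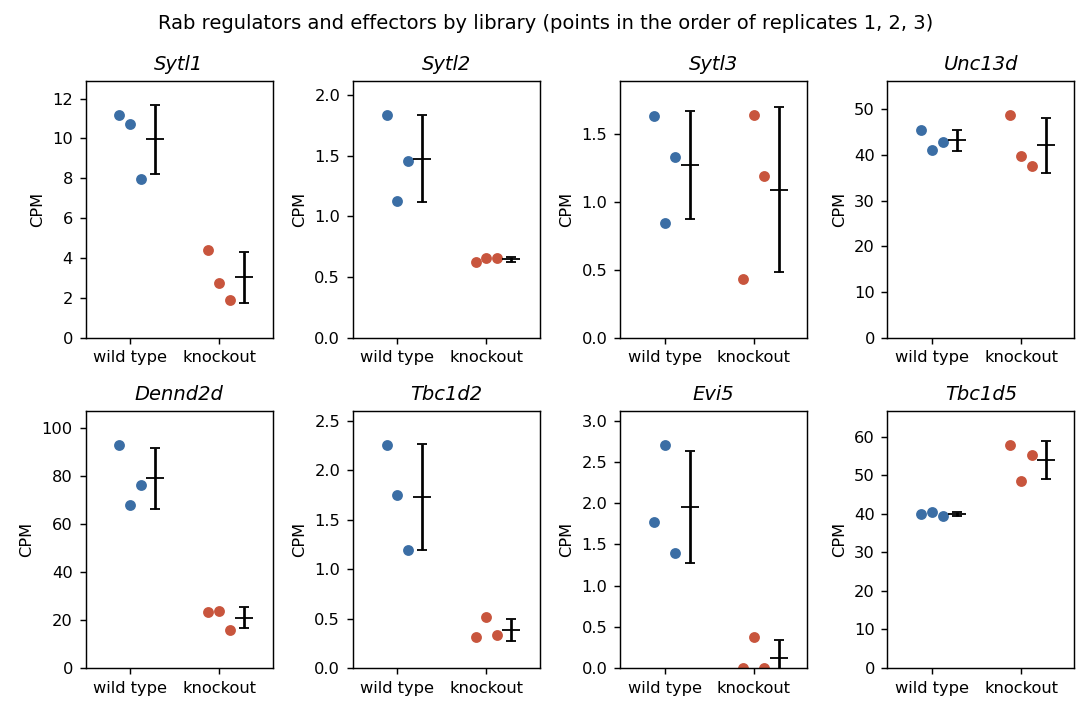
CPM (vertical axes, each from 0) of 8 regulators and effectors of Rab proteins in each wild-type and knockout library, with 1 point per library in the order of replicates 1, 2 and 3 and the mean ± SD (n = 3) beside them. Sytl1, Sytl2, Dennd2d, Tbc1d2 and Evi5 lie lower in all 3 knockout libraries, Tbc1d5 lies higher, and the points of Sytl3 and of Unc13d overlap between the groups.

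Markers of other cell types had low summed levels in all lists but the erythroid one, where Hbb-bt alone was at 130 to 189 CPM. The 7 stromal markers summed to at most 0.0564 CPM in wild-type and 0.132 CPM in knockout libraries (0 tested). Summed levels of 10 T and NK cell markers were 0.929 to 2.26 CPM in wild-type and 0.99 to 1.93 CPM in knockout libraries (1 tested; Ncr1 and Gzmb at 0), and of 10 myeloid markers 0.929 to 2.03 and 0.892 to 2.18 CPM (1 tested; Lyz2, Elane, Ly6g and S100a8 at 0). Of 10 erythroid and megakaryocyte markers 3 were tested and Gata1 fell, with Pf4 and Ppbp at 0. The summed level of that list, 146 to 170 CPM in wild-type and 132 to 190 CPM in knockout libraries, came almost wholly from Hbb-bt. The part of other cells in the results above was not tested.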

How the data were processed

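RNA counts of 6 libraries were analysed, and the other 9 samples of the series (chromatin immunoprecipitation with inputs) were not used. The deposited files give an integer read count for each gene and carry no normalisation, as their headers and values show. The submitters' processing notes list the build mm10 and, without their roles, limma, featureCounts 2.0.0 and STAR 2.5.3a. No source used here gives the strand setting, annotation release or treatment of multi-mapping reads, so reads of overlapping genes can be shared.

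Groups follow the sample titles. Of 55335 identifiers, 55154 matched a symbol, and 181 did not. Gene types and positions came from RefSeq (GRCm38.p6) by symbol. After the filterByExpr filter and TMM scaling, the quasi-likelihood test of edgeR 4.0.16 in R 4.3.3 compared the groups without covariates, with Benjamini-Hochberg adjustment over 13077 genes and a biological coefficient of variation of 0.109. SE values come from the fold change and the F statistic, and 95% intervals from the SE and the t distribution. Floors of 3 counts (0.141 to 0.212 CPM per library) cover counting error only. Replicate libraries differed by more than sampling noise in each pair (chi-square per degree of freedom, 7.4 to 19.5).

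The members, role groups and gene lists were chosen with earlier results of these data known. The genes named by rule were Rab27a, every called Rab gene and its paralogs, called regulators and the tested RAB27 effectors, with the extremes of each role group. The part of this rule on levels per kilobase was not applied, as transcript lengths were not used here. The values of 1 called exchange factor and 1 marker are not reported here. In counts simulated for 3 wild-type and 3 knockout libraries (12810 genes tested), 61.7% of 81 genes changed 1.5-fold, 81.8% of 55 changed 2-fold and 96.9% of 64 changed 4-fold were recovered, and 9 of 12610 unchanged genes were called. The simulation used the spread estimated from these libraries. Its changed genes were drawn from those with a mean above 1 CPM, so the shares do not cover members at lower levels, such as Rab13 and Rab25. Alternatives were RLE scaling, library totals, no count filter, a stricter filter (mean log2 CPM at or above 2), limma-voom 3.58.1, DESeq2 1.42.0, a replicate block and the omission of each library in turn. The omission of both libraries numbered 2, and of both numbered 3, was chosen after seeing the data.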

Additional observations from a re-analysis of the deposited data

How the results depend on the processing

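Rab27a stayed called under every alternative run, with log2 fold changes from -1.34 to -1.22, which is also the range without each library in turn. Of the Rab genes, 0 to 1 were higher and 2 to 3 lower without each library. Without the count filter 1 was higher (Rab44) and 4 lower, in DESeq2 1 was higher, and without both libraries numbered 2, or both numbered 3, only Rab27a (1) was lower. Of the regulators and effectors, 0 to 1 were higher and 4 to 5 lower without each library. Without the count filter 3 were higher, in DESeq2 2 were higher, under the stricter filter on low levels, which tests fewer genes, 3 were lower, and without both libraries numbered 2 there were 0 higher and 3 lower, and without both numbered 3 there were 0 higher and 2 lower (Dennd2d and Sytl1). Over all tested genes, 138 to 227 were higher and 242 to 316 lower without each library, with 138 and 242 the values without wild-type replicate 1 and 147 higher without knockout replicate 1. The counts were 482 higher and 721 lower without the count filter (26696 genes tested), 234 lower with the stricter filter (9636 tested), 224 lower without both libraries numbered 2, and 115 higher and 170 lower without both numbered 3. The causes of these differences were not tested, apart from the numbers of genes and samples that the alternatives themselves change.

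Across the alternatives, 1 to 7 of the tested Rab genes changed sign (the most, 7, when wild-type replicate 3 was omitted, and 4 when both libraries numbered 2 or both numbered 3 were). Among the genes named by rule, 3 changed sign, none of them past the threshold. Rab19 was at 0.06 without both libraries numbered 2, Sytl3 at 0.04 and 0.19 without wild-type and knockout replicate 1, and Unc13d at 0.0012, 0.01 and 0.04 without wild-type replicate 1 and knockout replicates 2 and 3 (also 0.04 without both libraries numbered 3). Without each library in turn Sytl3 ran from -0.62 to 0.19 and Unc13d from -0.16 to 0.04.

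With the replicate number as a block, 4 Rab genes were lower (Rab27a, Rab8b, Rab35 and Rab3d) and 1 higher (Rab44), 3 regulators and effectors were higher, and 381 of all genes were higher and 565 lower. Deviations of same-numbered libraries from their group means correlated at 0.0294, 0.212 and 0.403 for numbers 1, 2 and 3. Wild-type replicate 1 correlated best with knockout replicate 2 (0.272). Wild-type replicate 3 correlated best with knockout replicate 3, at -0.0168 and -0.396 with knockout replicates 1 and 2. The main test did not pair the samples by number, and whether libraries of 1 number share a batch was not tested. Rab35, Rab3d and Rab44 were called with the block but not in the main test. Depth limits the members with few reads, such as Rab13, Rab25, Rab4a and Rab36, whose intervals include a 2-fold rise.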
